A study of Mus musculus with 6 samples.

Results

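Tyrobp, Fcer1g, Hcst, Fcgr1, Fcgr3, Fcgr4, Fcgr2b and Syk encode the signalling adaptors of innate immune receptors, the Fc receptors for IgG and the kinase that acts below them. They were taken by gene name from the deposited expression table, which held 1 row for each of the 8 names among 28945 genes, and were chosen with earlier results of these data known. Splenic CD4+ T cells gave the RNA, in 3 libraries of db/db mice, labelled DM, and 3 libraries of C57BL/6J mice, labelled CONT. Mice of the db/db line lack normal leptin receptor signalling and develop obesity and diabetes. The labels give neither their strain background nor age, sex or treatment, and leave unsaid if the libraries are of separate animals, so the p-values cover the spread of these 6 libraries, possibly a technical one. The comparison asks how these genes differed between diabetic and control mice in a T cell preparation.

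Fc receptors bind the constant part of antibodies and let phagocytes, mast cells, basophils and natural killer cells respond to antibody-coated targets. The activating receptors have no signalling motif of their own in the mouse and pair with a small adaptor, whose immunoreceptor tyrosine-based activation motif (ITAM) is phosphorylated by Src-family kinases and then binds Syk. Fcer1g, the common Fc receptor gamma chain, serves the activating IgG receptors and the IgE receptor, while Tyrobp, also called DAP12, serves receptors of the TREM, SIRP-beta and natural killer families. Hcst, also called DAP10, carries a motif for phosphoinositide 3-kinase instead of an ITAM and pairs with the receptor NKG2D. Fcgr2b is the inhibitory IgG receptor, with a tyrosine-based inhibition motif. Conventional CD4 T cells use another ITAM system, the CD3 chains with the kinase Zap70, and myeloid cells and B cells are the usual sources of Syk and Fcgr2b.

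On GRCm38 the genes lie at 4 places. Tyrobp (chr7:30413760-30417585, plus strand) and Hcst (chr7:30417712-30419854, minus strand) are neighbours that face each other, with 126 bases between their 3′ ends. Fcgr2b (chr1:170958617-170976547, minus strand), Fcgr4 (chr1:171018920-171029761, plus strand), Fcgr3 (chr1:171051174-171064935, minus strand) and Fcer1g (chr1:171229572-171234365, minus strand) share a stretch of chromosome 1. Fcgr1 is at chr3:96282909-96293969 on the minus strand and Syk at chr13:52583173-52648792 on the plus strand.

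The bases just before the start site are shown for Hcst, which was not higher in DM, and for 3 Fc receptor genes, which were. The 3 are the Fc receptor genes whose windows held the motif GAGGAA. Fcgr2b, Fcer1g and Syk were also higher in DM and are not shown, and the windows of Fcgr2b and Fcer1g held no match. The sequences shown therefore do not relate a motif to the direction of change. RefSeq promoter sequences on GRCm38.p6 matched 7 of the 8 genes, all but Tyrobp, and the 250 bases before each start were searched on both strands. The motifs were GAGGAA, a core bound by the myeloid factor PU.1, and TTCNNNGAA, the form bound by STAT factors; no match overlaps another here. Capitals mark the matches in these sequences, written 5′ to 3′ on the strand of the gene, with Fcgr1 from chr3:96293970-96294219, Fcgr3 from chr1:171059404-171059653, Fcgr4 from chr1:171018676-171018925 and Hcst from chr7:30419855-30420104.
Fcgr1: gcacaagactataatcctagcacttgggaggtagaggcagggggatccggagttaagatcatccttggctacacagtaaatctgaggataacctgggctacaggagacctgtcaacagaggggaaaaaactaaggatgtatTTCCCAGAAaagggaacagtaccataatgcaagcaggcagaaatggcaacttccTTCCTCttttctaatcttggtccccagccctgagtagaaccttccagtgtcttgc
Fcgr3: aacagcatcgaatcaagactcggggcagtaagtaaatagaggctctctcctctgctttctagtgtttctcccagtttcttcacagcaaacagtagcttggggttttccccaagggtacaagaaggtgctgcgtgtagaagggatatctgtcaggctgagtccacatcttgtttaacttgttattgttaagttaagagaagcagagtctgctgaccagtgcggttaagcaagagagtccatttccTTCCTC
Fcgr4: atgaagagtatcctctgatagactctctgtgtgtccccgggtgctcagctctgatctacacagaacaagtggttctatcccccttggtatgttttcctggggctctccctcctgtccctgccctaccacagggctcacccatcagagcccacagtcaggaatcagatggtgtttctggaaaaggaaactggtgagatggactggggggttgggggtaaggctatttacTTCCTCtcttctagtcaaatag
Hcst: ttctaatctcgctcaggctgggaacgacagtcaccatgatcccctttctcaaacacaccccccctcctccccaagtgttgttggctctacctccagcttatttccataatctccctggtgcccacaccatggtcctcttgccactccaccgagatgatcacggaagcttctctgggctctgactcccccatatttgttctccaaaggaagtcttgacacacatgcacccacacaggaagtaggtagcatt
Each of the 3 Fc receptor windows held GAGGAA once, read on the other strand as TTCCTC, with its first base 55 bases before the start in Fcgr1, 6 in Fcgr3 and 22 in Fcgr4. The Fcgr1 window also held TTCNNNGAA, beginning 109 bases before the start. A second listed start of Fcgr3 had the same match beginning 15 bases before it. Neither motif was found in the windows of Hcst, Fcer1g or Fcgr2b, and Syk held GAGGAA before 1 of its start sites. Some windows are not only bases upstream of the gene. Of the 250 bases, 187 in Fcgr2b and all 250 before the first Syk start lie in annotated exons of the same gene, and the Fcgr3 window lies inside its annotated span. Of 32851 promoter entries of this length, 23.3% held GAGGAA and 7.02% held TTCNNNGAA. A match describes the letters only and is no evidence of binding.

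Expression was given as FPKM, a level per transcript length and library depth, so levels of different genes can be set side by side. The FPKM of all genes summed to between 385070 and 410282 in the DM libraries and between 248070 and 369531 in the CONT libraries. CONT replicate 1 stood apart, with a mean correlation to its own group of 0.878 in log2 values, while the other libraries had 0.915 to 0.949. DM replicate 3 held far more B cell marker RNA than any other library. The CD4 T cell markers were present in all libraries, with Cd4 at 82.4, 134 and 93.2 FPKM in DM and at 220, 161 and 149 FPKM in CONT. Some results, but not all, are also given with a library left out.

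Every gene of the set but Hcst was higher in DM, and Tyrobp and Fcgr3 rose past the threshold. In limma on log2(FPKM + 1), 2 of the 8 genes had a Benjamini-Hochberg (BH) adjusted p below 0.05, both higher, where 1.27% of the 13106 genes tested were called higher and 0.252% lower. All 8 genes passed the filter of a mean of at least 1 FPKM in either group. Fcgr1 and Fcgr2b passed it only through DM, with CONT means of 0.529 and 0.739 FPKM. In 7 of the 8, every DM library was above every CONT library, against 13.8% of all genes tested, and in none was every DM library below, against 13.2%. The same 7 were higher at an unadjusted p below 0.05 and none was lower, where 9.77% of all genes were higher and 6.24% lower. The median log2 fold change, DM minus CONT, was 1.83 over the 8 genes and -0.01 over all genes tested. Without DM replicate 1 no gene of the 8 passed. RNA of bulk samples does not tell a change in the number of cells of a type from a change in RNA per cell.

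**Figure D1:**
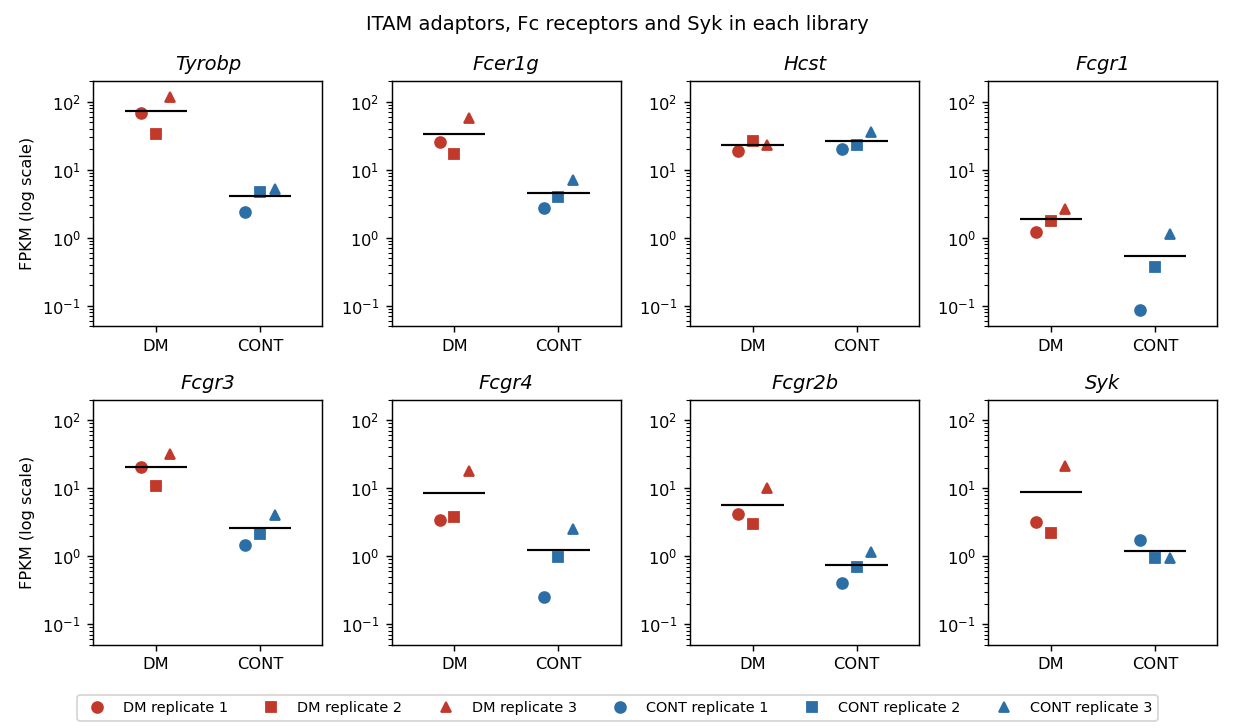
FPKM (log axis) of the 8 genes in each DM library (left) and CONT library (right); each point is 1 library, its shape the replicate number, and the black line is the group mean. In 7 genes the DM points all lie above the CONT points, while those of Hcst overlap.

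Tyrobp, the adaptor DAP12, had the largest fold change of the 8 genes. Its level was 67.4, 33.6 and 116 FPKM in DM replicates 1, 2 and 3, against 2.34, 4.71 and 5.11 FPKM in CONT replicates 1, 2 and 3. The lowest DM library was above the highest CONT library by a wide margin. Tyrobp averaged 72.3 ± 41.4 FPKM in DM and 4.05 ± 1.5 FPKM in CONT (SD, n = 3 each), a ratio of means of 17.8. On log2(FPKM + 1), which understates the change of low genes, its log2 fold change was 3.74 ± 0.46 (SE), with a limma adjusted p (BH) of 0.0151. Without DM replicate 1 the log2 fold change was 3.70 and the adjusted p 0.0745 in limma; with each of the other 5 libraries left out in turn it passed.

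Hcst, the adaptor DAP10 whose gene ends next to that of Tyrobp, had no detectable change. Its level was 18.7, 26.0 and 23.2 FPKM in DM, against 20.0, 23.0 and 36.1 FPKM in CONT. The groups overlapped, and the highest value was in CONT replicate 3. Hcst averaged 22.6 ± 3.65 FPKM in DM and 26.4 ± 8.57 FPKM in CONT (SD, n = 3 each). The log2 fold change was -0.18, with a 95% interval of -0.81 to 0.45 (adjusted p = 0.688, limma with BH). It was 0.06 without CONT replicate 3, and -0.52 with the libraries scaled to equal totals (adjusted p = 0.293, limma with BH). The other neighbour on this side, Nfkbid, lies 1877 bases beyond Hcst and was at 7.63, 13.6 and 8.94 FPKM in DM, against 15.2, 12.1 and 10.4 FPKM in CONT.

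Fcer1g, the gamma chain shared by the activating receptors, was at 25.6, 17.1 and 58.2 FPKM in DM, against 2.74, 3.97 and 7.07 FPKM in CONT. The groups did not overlap, with DM replicate 3 the highest and CONT replicate 1 the lowest library. It averaged 33.6 ± 21.7 FPKM in DM and 4.59 ± 2.23 FPKM in CONT (SD, n = 3 each), a ratio of 7.32. The log2 fold change of 2.52 ± 0.47 (SE) missed the threshold, with a limma adjusted p (BH) of 0.0567.

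Among the activating IgG receptors, Fcgr3, the low-affinity receptor, was the highest and the one that rose. Its level was 20.4, 10.6 and 31.1 FPKM in DM, against 1.47, 2.09 and 4.07 FPKM in CONT, and again DM replicate 3 was the highest and CONT replicate 1 the lowest. The means were 20.7 ± 10.3 FPKM in DM and 2.55 ± 1.36 FPKM in CONT (SD, n = 3 each). The log2 fold change was 2.56 ± 0.42 (SE), with a limma adjusted p (BH) of 0.0379. With 1 library left out the call held only without DM replicate 2. Without DM replicates 1 and 3 the adjusted p was 0.156 and 0.108, and without CONT replicates 1, 2 and 3 it was 0.0630, 0.0874 and 0.0563 (BH-adjusted, limma), with log2 fold changes of 2.22 to 2.85.

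Fcgr4, the receptor for IgG2a and IgG2b on neutrophils and monocytes, was at 3.37, 3.79 and 17.9 FPKM in DM, against 0.254, 0.973 and 2.49 FPKM in CONT. DM replicate 3 held most of the DM level, while DM replicates 1 and 2 were little above CONT replicate 3. The log2 fold change of 1.84 ± 0.62 (SE) did not pass (adjusted p = 0.243, limma with BH) and was 1.16 without DM replicate 3. Fcgr1, the high-affinity receptor of monocytes and macrophages, was the lowest of the set, at 1.22, 1.72 and 2.58 FPKM in DM and at 0.0847, 0.369 and 1.13 FPKM in CONT. Its highest CONT library lay just under its lowest DM library. The log2 fold change was 0.93 ± 0.32 (SE; adjusted p = 0.253, limma with BH). In both groups the mean levels per length ran in the same order, with Fcgr3 above Fcgr4 and Fcgr4 above Fcgr1, though neighbours in this order differed by less than the SD of the higher gene for Fcgr4 and Fcgr1 in both groups and for Fcgr3 and Fcgr4 in CONT.

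Fcgr2b, the inhibitory receptor of B cells and myeloid cells, was at 4.13, 2.96 and 9.87 FPKM in DM, against 0.405, 0.679 and 1.13 FPKM in CONT. The groups did not overlap. It averaged 5.65 ± 3.70 FPKM in DM and 0.739 ± 0.367 FPKM in CONT (SD, n = 3 each), with a log2 fold change of 1.82 ± 0.39 (SE; adjusted p = 0.0827, limma with BH). The activating receptor Fcgr3 exceeded it 4.94, 3.58 and 3.15 times in DM and 3.64, 3.08 and 3.60 times in CONT, so this ratio of levels overlapped between the groups. Both genes have like sequences: 9.58% of the 50-base stretches in Fcgr3 transcripts also occur in Fcgr2b, and 2.92% of those in Fcgr2b occur in Fcgr3. The sources used here do not say how reads that match both were assigned, so the split between them is uncertain. Counting all other genes, 6.95% of the Fcgr2b stretches occur elsewhere, in 146 genes, with Fcgr3 sharing the most. The 6 genes besides Fcgr3 and Fcgr2b shared 0 such stretches with any transcript of another gene. The antisense gene Gm38204 overlaps Fcgr2b and reached 0.129 FPKM in DM replicate 3.

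Syk, the kinase that binds phosphorylated ITAMs, was at 3.21, 2.19 and 20.8 FPKM in DM, against 1.74, 0.928 and 0.931 FPKM in CONT. DM replicate 3 stood far above all other libraries. The log2 fold change was 1.62 ± 0.68 (SE; adjusted p = 0.308, limma with BH) and 0.76 without that library. Zap70, its counterpart in T cells, was at 33.2, 39.5 and 37.1 FPKM in DM and at 57.4, 47.3 and 47.3 FPKM in CONT, and did not pass (log2 fold change -0.45; adjusted p = 0.319, limma with BH). The level of Syk relative to Zap70 was 0.0967, 0.0554 and 0.560 in DM and 0.0303, 0.0196 and 0.0197 in CONT, so Zap70 was the higher of these kinases in every library.

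**Figure D2:**
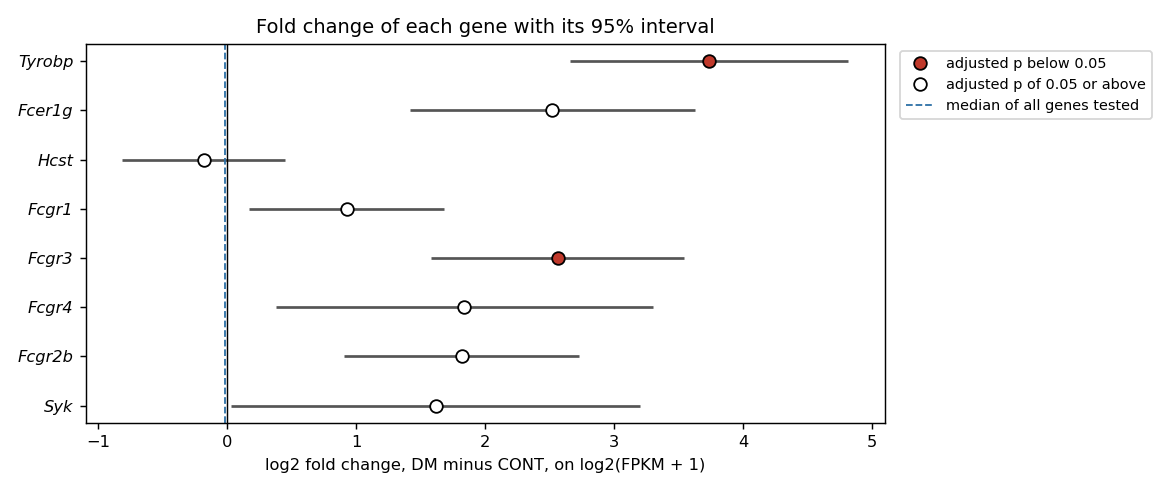
Log2 fold change, DM minus CONT, on log2(FPKM + 1), with its 95% interval from limma, for the 8 genes; filled points have an adjusted p below 0.05 and the dashed line is the median of all genes tested. Tyrobp (3.74) and Fcgr3 (2.56) are filled, and the interval of Hcst spans 0.

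The composition of the set differed between the groups. Tyrobp made up 46.8%, 34.3% and 41.5% of the summed FPKM of the 8 genes in DM, against 8.06%, 12.8% and 8.80% in CONT. Hcst made up 13.0%, 26.5% and 8.28% in DM, against 68.9%, 62.7% and 62.2% in CONT. The level of Tyrobp was 3.60, 1.30 and 5.01 times that of Hcst in DM, against 0.117, 0.205 and 0.142 times in CONT, so the order of these neighbouring genes was opposite in the groups. The ITAM adaptors also differed in proportion, with Tyrobp at 2.64, 1.97 and 1.99 times Fcer1g in DM and at 0.852, 1.19 and 0.723 times in CONT. In contrast, Fcer1g was 1.25, 1.61 and 1.87 times Fcgr3 in DM and 1.86, 1.9 and 1.74 times in CONT, where the groups overlapped. These ratios are descriptions and were not tested.

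**Figure D3:**
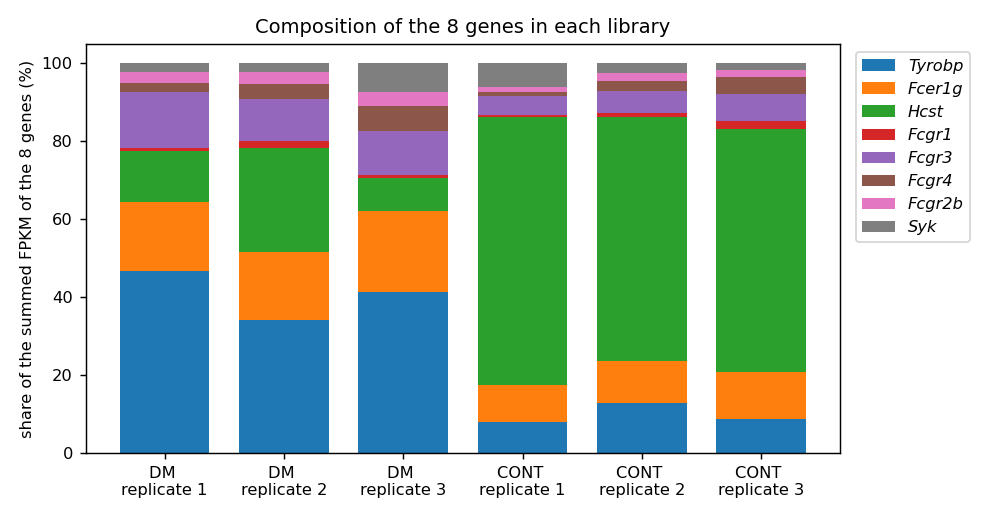
Share (%) of each of the 8 genes in their summed FPKM, stacked for each DM library (left) and CONT library (right). Hcst takes 62.2% to 68.9% in the CONT libraries, and Tyrobp takes 34.3% to 46.8% in the DM libraries.

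The genes shared much of their order over libraries. DM replicate 3 was the highest DM library for 7 of the 8 genes, all but Hcst, and DM replicate 2 was the lowest for 5. In CONT, replicate 3 was the highest for 7 and replicate 1 the lowest for 7, with Syk highest in replicate 1. The summed level of the 8 genes was 144, 97.9 and 279 FPKM in DM and 29.0, 36.7 and 58.1 FPKM in CONT.

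Of 14 further Fc receptor genes, 10 were tested, 1 rose and none fell, where 1.27% of all genes tested were called higher. At an unadjusted p below 0.05 (limma) 3 were higher and none lower, where 9.77% and 6.24% of all genes tested were. The median log2 fold change was 0.997. The gene that rose, like Ms4a2 and others of the list, had a CONT mean below 1 FPKM and passed the filter only through DM. These counts and this median were thus partly set by the filter. Fcer1a, the IgE-binding chain that pairs with Fcer1g, rose, at 9.76, 6.38 and 2.88 FPKM in DM, against 0, 0.332 and 0.185 FPKM in CONT (log2 fold change 2.54 ± 0.37 SE; adjusted p = 0.0279, limma with BH). With 1 library left out in turn Fcer1a passed in 3 of 6 fits, and not without DM replicate 1, DM replicate 2 or CONT replicate 3. Its order over the DM libraries was the reverse of that of Fcgr4, with DM replicate 3 the lowest. The IgM receptor Fcmr was at 0.775, 0.791 and 45.8 FPKM in DM and at 3.94, 0.896 and 0.864 FPKM in CONT, where only DM replicate 3 was high. Trim21, the cytosolic antibody receptor, was the highest of the list on average in CONT, though in DM the mean of Fcmr, carried by DM replicate 3, was above it. Trim21 was at 12.7, 14.8 and 11.4 FPKM in DM and at 18.4, 16.9 and 16.3 FPKM in CONT, and did not pass (adjusted p = 0.325, limma with BH).

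Receptors that signal through these adaptors were mostly low, and those tested were mostly above CONT. Of 17 receptors that pair with Tyrobp, 12 were tested and none passed, while 5 were higher and none lower at an unadjusted p below 0.05 (limma). In 10 every DM library was above every CONT library, against 13.8% of all genes tested, and the median was 1.22. All tested receptors of this list but Klrd1 had a CONT mean below 1 FPKM and passed the filter only through DM. This count and this median were thus partly set by the filter. The granulocyte receptor Trem3 was at 5.13, 1.67 and 7.17 FPKM in DM, against 0.520, 0.441 and 0.357 FPKM in CONT (adjusted p = 0.0896, limma with BH). Klrd1, a chain of natural killer receptors and the highest of the list on average, was at 11.1, 18.1 and 29.9 FPKM in DM and at 11, 14.2 and 16.7 FPKM in CONT, where the groups overlapped. Klra8, the activating natural killer receptor Ly49H, was listed at 0 in all 3 DM libraries and was at 1.0, 0.267 and 0.0774 FPKM in CONT, below the level tested.

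The receptors that pair with Fcer1g gave calls. Of 15 listed, 14 were in the table and 11 were tested, of which 3 rose and none fell. All 11 had every DM library above every CONT library, against 13.8% of all genes tested, and the median was 1.39. All of them but Il3ra had a CONT mean below 1 FPKM and passed the filter only through DM. The filter thus partly set this count and this median. Besides Fcer1a the genes that rose were the beta chains of the interleukin-3, interleukin-5 and GM-CSF receptors, Csf2rb2 and Csf2rb. Csf2rb was at 3.42, 2.92 and 7.61 FPKM in DM, against 0.576, 0.471 and 0.609 FPKM in CONT (log2 fold change 1.77 ± 0.31 SE; adjusted p = 0.0475, limma with BH), and Csf2rb2 had a log2 fold change of 1.32 ± 0.22 (SE; adjusted p = 0.0371, limma with BH). With 1 library left out, Csf2rb passed in 0 of 6 fits and Csf2rb2 in 1 of 6, that without CONT replicate 1. For Hcst, 7 genes of its receptor and signal were tested and none passed, at an adjusted or an unadjusted p below 0.05 (limma), with a median of -0.16, which was -0.49 at equal totals, -0.05 without CONT replicate 1 and -0.28 without CONT replicate 3. Klrk1, which encodes the Hcst partner NKG2D, was at 1.75, 1.85 and 5.27 FPKM in DM and at 1.74, 2.61 and 2.29 FPKM in CONT.

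Downstream of the adaptors, none of 20 genes of the myeloid ITAM pathway passed, with 9 higher and 1 lower at an unadjusted p below 0.05 (limma) and a median of 1.05, or 0.56 without DM replicate 3. The Src-family kinase Lyn was at 9.11, 5.67 and 30.4 FPKM in DM, against 1.75, 2.06 and 2.16 FPKM in CONT (adjusted p = 0.123, limma with BH). Lyn had DM replicate 3 far above the other libraries, as Syk did. The adaptor Lcp2, or SLP-76, which T cells also use, was at 46.9, 59.9 and 63.4 FPKM in DM and at 79.1, 74.5 and 66.7 FPKM in CONT, with a log2 fold change of -0.37 that did not pass.

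Among 20 inhibitory receptors and phosphatases tested, 1 rose and none fell, with a median of 1.02, or 0.58 without DM replicate 3. Clec12a, an inhibitory lectin of myeloid cells, was at 9.22, 3.58 and 7.08 FPKM in DM, against 0.212, 1.03 and 0.919 FPKM in CONT (log2 fold change 2.11 ± 0.35 SE; adjusted p = 0.0392, limma with BH). Clec12a passed in 1 of 6 fits with 1 library left out, that without DM replicate 2. The phosphatase Ptpn6, or SHP-1, which many blood cells share, was the highest on average and overlapped, at 54.0, 50.8 and 93.1 FPKM in DM and at 54.2, 80.1 and 73.8 FPKM in CONT. The T cell ITAM system gave no calls among its 12 genes, with a median of -0.47, or -0.81 at equal totals. At an unadjusted p below 0.05 (limma) 3 were lower and none higher, where 6.24% and 9.77% of all genes tested were. In 7 of the 12 every DM library was below every CONT library, against 13.2% of all genes tested. The ITAM chains of the B cell receptor, Cd79a and Cd79b, were high in DM replicate 3 alone, at 94.7 and 98.7 FPKM, and between 0.694 and 7.45 FPKM in the other 5 libraries.

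Markers of several other cell types were also higher in DM, though not all in the same order of libraries as the set. Their part in the result was not tested. Of 17 macrophage and monocyte markers tested, 3 rose (Lyz2, Mpeg1 and Aif1), none fell, 15 were higher at an unadjusted p below 0.05 (limma) and all 17 had a fold change above 0. The summed level of that list was 507 to 1462 FPKM in DM and 113 to 275 FPKM in CONT. Basophil and mast cell markers, 6 of 11 called and 9 higher at an unadjusted p below 0.05 (limma), had Mcpt4 at 0 in all CONT libraries. They summed to 348, 148 and 84.3 FPKM in DM replicates 1, 2 and 3, against 5.62 to 12.5 FPKM in CONT. DM replicate 3 was thus the lowest DM library for these markers and the highest for the sum of the 8 genes. Neutrophil markers, none of 16 called and 7 higher at an unadjusted p below 0.05 (limma), summed to 269 to 1442 FPKM in DM and 37.2 to 133 FPKM in CONT, and dendritic cell markers, 1 of 10 called and 9 higher on the same count, to 137 to 427 FPKM in DM and 38.7 to 79.9 FPKM in CONT. B cell markers, none of 12 called at an adjusted or an unadjusted p below 0.05 (limma), were at 12.8 to 385 FPKM in DM and 6.23 to 27.2 FPKM in CONT, with the upper value from DM replicate 3. Natural killer markers, none of 8 called and 1 higher at an unadjusted p below 0.05 (limma), were at 68.4 to 278 FPKM in DM and 56.2 to 76.6 FPKM in CONT; their median log2 fold change of 0.14 was -0.15 at equal totals and -0.19 without DM replicate 3. Plasma cell markers, 2 of 10 called and 8 higher at an unadjusted p below 0.05 (limma), summed to 1736 to 3041 FPKM in DM and 380 to 748 FPKM in CONT. Erythroid markers, none of 11 called and 5 higher at an unadjusted p below 0.05 (limma), summed to 462 to 5799 FPKM in DM and 147 to 1086 FPKM in CONT. Their sum in DM replicate 2 was below that in CONT replicate 2. Platelet and megakaryocyte markers, none of 4 called and 3 higher on the same count, summed to 4.94 to 11.8 FPKM in DM and 1.83 to 3.44 FPKM in CONT. CD4 T cell markers, none of 17 called and 8 lower at an unadjusted p below 0.05 (limma), summed to 2463 to 3638 FPKM in DM and 3470 to 4337 FPKM in CONT.

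**Figure D4:**
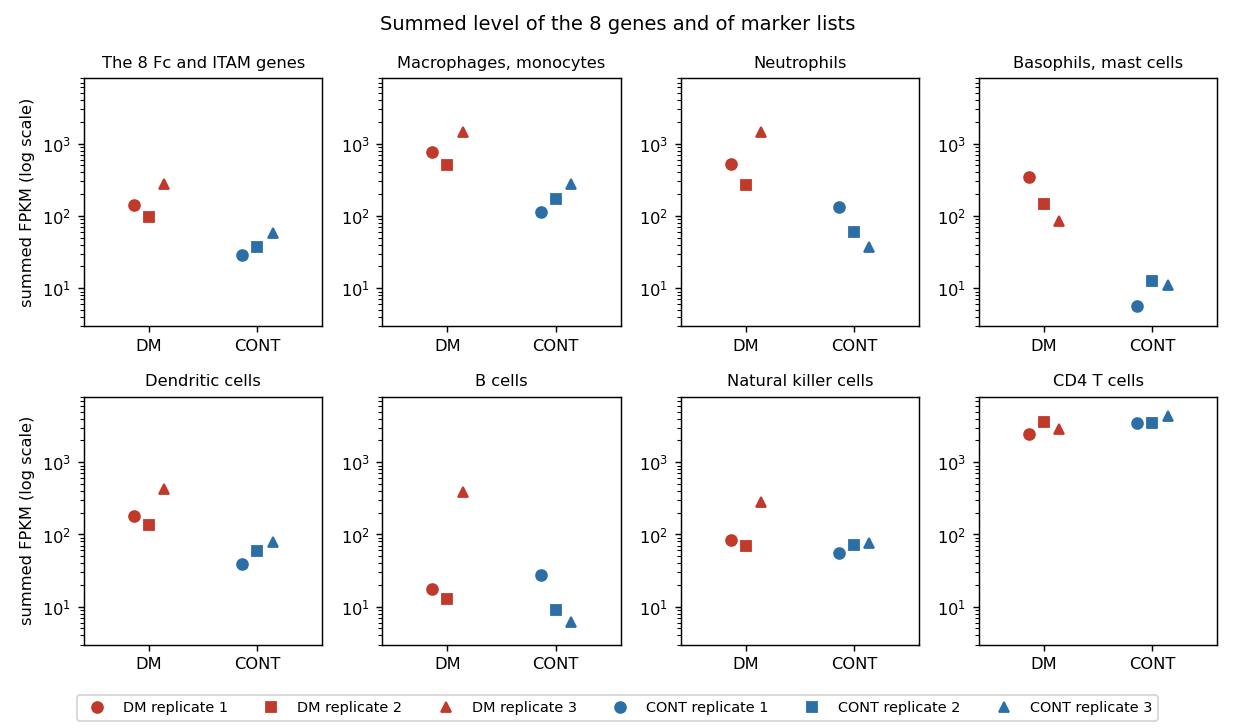
Summed FPKM (log axis) of the 8 genes and of 7 marker lists in each DM library (left) and CONT library (right); each point is 1 library and its shape the replicate number. The DM points lie above the CONT points for the 8 genes and for the macrophage, neutrophil, basophil and dendritic cell lists, while B cell markers are high in DM replicate 3 alone.

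Set against the macrophage and monocyte list, Fcer1g was at 3.33%, 3.37% and 3.98% of its summed FPKM in DM and at 2.43%, 2.29% and 2.57% in CONT. Tyrobp was at 8.78%, 6.63% and 7.93% of the same sum in DM and at 2.07%, 2.72% and 1.86% in CONT. Both shares were higher in each DM library than in any CONT library, but one marker, the protease Ctss, made up 17.7%, 32.8% and 15.6% of the sum in DM and 68.4%, 60.2% and 58.2% in CONT. With Ctss left out of the sum, a choice made after seeing the data, the share of Fcer1g was the other way round, at 4.04%, 5.01% and 4.71% in DM and 7.69%, 5.75% and 6.15% in CONT. That of Tyrobp was still higher in every DM library, at 10.7%, 9.86% and 9.39% in DM and 6.55%, 6.83% and 4.45% in CONT. Lyz2 also weighed on the sum, at 349, 170 and 845 FPKM in DM replicates 1, 2 and 3, where the whole list summed to 768, 507 and 1462 FPKM. In CONT replicates 1, 2 and 3 it was at 14.9, 19.3 and 29.6 FPKM of 113, 173 and 275 FPKM. The direction for Fcer1g thus depended on which markers were summed. A sum without Lyz2 was not computed, and the shares were not tested. Of 7 myeloid transcription factors tested, 3 rose (Klf4, Cebpa and Spi1) and none fell. Spi1, which encodes PU.1, was at 6.79, 4.88 and 15.7 FPKM in DM, against 1.16, 1.02 and 1.2 FPKM in CONT (log2 fold change 2.10 ± 0.37 SE; adjusted p = 0.0474, limma with BH). With 1 library left out Spi1 passed in 1 of 6 fits, that without DM replicate 2.

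The genes with the most similar profiles were found by the Euclidean distance between centred log2(FPKM + 1) values over the 6 libraries. The search covered tested protein-coding genes outside the set of 8, so a gene of the set may lie nearer than those named. Nearest to Tyrobp were the lysozyme Lyz2 (distance 0.73), the leukotriene pathway gene Alox5ap (0.88) and the protease inhibitor Slpi (0.90). Lyz2 was at 349, 170 and 845 FPKM in DM, against 14.9, 19.3 and 29.6 FPKM in CONT, with the same order of DM libraries as Tyrobp. Nearest to Fcer1g were the macrophage pore-former Mpeg1 (0.40), the chemokine Ccl9 (0.65) and the fungal receptor Clec7a (0.66), and genes near Fcgr2b included Ifi207 (0.33) and Clec7a (0.43). Nearest to Syk were the ubiquitin ligase Marchf1 (0.46), the kinase Fgr (0.51) and the B cell survival receptor Tnfrsf13c (0.53), each high in DM replicate 3 alone. Hcst lay nearest to Fxyd5 (0.23), H2bu2 (0.28) and Xlr4a (0.28), none of which passed the test. These distances describe 6 libraries in 2 groups.

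**Figure D5:**
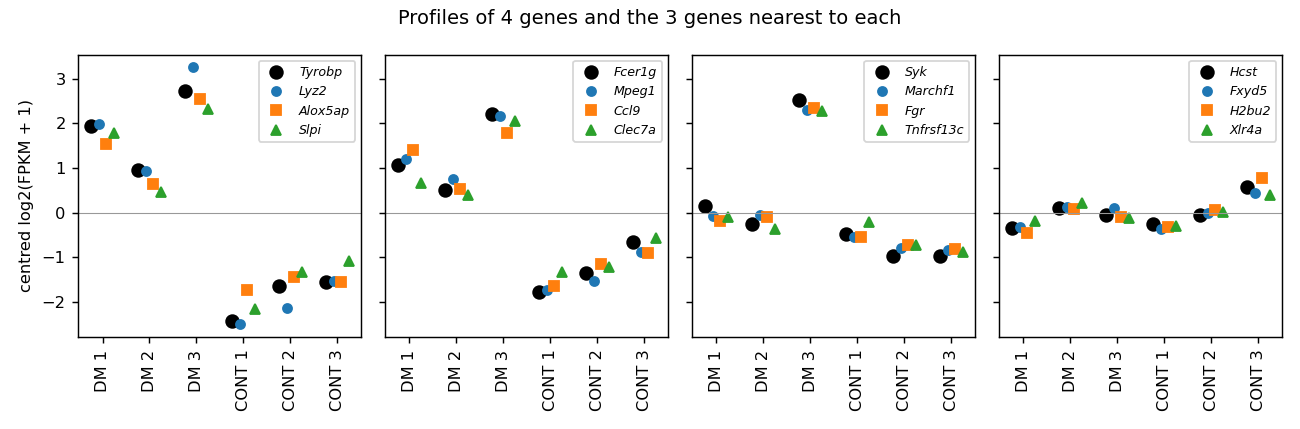
Centred log2(FPKM + 1) in the 3 DM libraries (left) and 3 CONT libraries (right) for Tyrobp, Fcer1g, Syk and Hcst (black) and the 3 protein-coding genes outside the set nearest to each (coloured). Tyrobp and Fcer1g are high in all DM libraries, Syk is high in DM replicate 3 alone, and Hcst varies little.

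In the authors' deposited table, 6 of the 8 genes were higher with a q-value below 0.05, against 4.14% of all 28945 genes. That share also counts genes too low for the limma filter, which all 8 genes passed. A share over the 13106 genes tested in limma was not computed. The authors' deposited table gave a q-value of 7.13e-13 for Tyrobp, 3.05e-06 for Fcgr3, 2.21e-05 for Fcgr2b, 2.86e-05 for Fcer1g, 0.00181 for Syk and 0.0309 for Fcgr4. Fcgr1 (0.251) and Hcst (0.873) had larger q-values in the authors' deposited table. The sources used here do not name the test behind these values, and 4 of the 6 did not pass in limma.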

How the data were processed

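The authors deposited 1 table with a value per gene and library. The deposited values are called counts in the table's name but are in FPKM: they are not whole, and in 12915 genes with 1 transcript 18.7% to 21.5% of low values times length fell within 0.02 of a multiple of the library's best step, against 3.51% to 3.58% at the median step. The steps gave relative depths of 0.801 to 1.12; read totals are unknown and counting intervals were not computed. The submitters' processing notes list cutadapt 1.9, FastQC and the build GRCm38; the sources used here name no aligner, quantifier or use of strand. The authors' deposited p-values, q-values, fold changes (a ratio of means) and their log2 come from a test that is not named.

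The test was limma 3.58.1 (R 4.3.3; trended, robust prior variance) on log2(FPKM + 1), over the 13106 genes with a mean of at least 1 FPKM in DM or CONT, with Benjamini-Hochberg adjustment over all of them and a threshold of 0.05. It was tested on simulated data. The 8 genes and 19 lists were chosen with earlier results of these data known. Lists are described by counts and medians, with no test. A gene with a mean below 1 FPKM in one group was tested only if the other group reached it. Counts and medians of lists with low genes therefore partly follow the filter. Genes were named by rule: the 8 genes, called genes and the highest of each list, nearest profiles and neighbours within 5000 bases. Some of these are left out, and Fcmr, Trem3, Klra8, Klrk1, Zap70 and Lyn were named after their values were seen. Identifiers matched GENCODE M21 for 28864 of 28945 genes (99.7%). Alternatives were other scalings, pseudocounts, filters, thresholds and prior variance, a replicate block, and leaving out abundant gene classes or each library; leaving out DM replicate 3 with CONT replicate 1, and Ctss from a marker sum, were chosen after seeing the data. Python 3.11.15 with matplotlib 3.10.9 drew the figures.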

Additional observations from a re-analysis of the deposited data

How the results depend on the processing

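Tyrobp and Fcgr3 passed under each scaling, both other pseudocounts, a filter on the mean over all libraries, a constant prior variance and without abundant gene classes. The number of the 8 genes that passed was 0 with no filter on low values, 4 at an adjusted p threshold of 0.1 and 0 at 0.01, and 1 without DM replicate 3 and CONT replicate 1 together; it ran from 0 to 2 when each library was left out. Over all genes the calls, 199 in the reported fit, were 28 with no filter, 58 without abundant gene classes, 387 at a threshold of 0.1 and 23 at 0.01, and ran from 24 to 192 when each library was left out, where fewer samples enter the fit. With the replicate number as a block 5 of the 8 genes passed (also Fcer1g, Fcgr4 and Fcgr2b) and 204 of all genes; same-numbered libraries correlated at -0.36, -0.38 and -0.20 in their deviations from the group means, so the numbers are not taken to pair the samples. Equal totals moved the median of all genes to -0.32, and leaving out abundant gene classes to -0.19; at equal totals Tyrobp was at 3.43 and Fcgr3 at 2.28 on the log2 scale. Over 17 settings Tyrobp ranged from 3.04 to 4.19, Fcer1g from 1.79 to 2.90, Fcgr3 from 1.99 to 2.97, Fcgr2b from 1.25 to 2.69, Fcgr4 from 0.80 to 2.65, Fcgr1 from 0.53 to 1.97 and Syk from 0.76 to 2.14. Hcst was the gene whose direction reversed, from -0.52 at equal totals, its lowest value, to 0.0601 without CONT replicate 3. It was at -0.37 without DM replicate 3 and CONT replicate 1. Of 162 recomputed list medians, 5 moved by more than the spread between replicates. That spread includes any library left out, so this count cannot show that the medians are stable. The median of the B cell markers went from 1.17 to 0.52 without DM replicate 3, which is within its spread of 1.62. Of 18 called genes in the lists, only Mcpt8 passed in all 6 fits that leave out 1 library, and the other 17 did not pass without DM replicate 1. The cause of these changes was not tested beyond the fits themselves. With 3 libraries a group and no read totals, smaller changes may not be detectable.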
